A study of Mus musculus with 12 samples.

Results

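The genes described here are 10 transcription factors that mark motor columns and motor pools and are not LIM homeodomain, Hox or ETS factors: *Foxp1*, *Foxp2*, *Foxp4*, *Pou3f1*, *Runx1*, *Mecom*, *Barx2*, *Onecut1*, *Onecut2* and *Onecut3*. They were chosen by name and found by NCBI Gene ID, and all 10 were present among the 45777 identifiers of every table. Bulk RNA-seq was made from mouse ventral spinal cord at E12.5, dissected at the brachial and the lumbar level and trimmed around the Hb9::GFP reporter, which labels motor neurons (MNs). *Isl2* heterozygotes (*Isl2* +/-, Het) served as the control and were compared with *Isl2* KO embryos (*Isl2* -/-), with 3 libraries of each genotype at each level. All embryos therefore carried the reporter and at least 1 null *Isl2* allele in every cell, and no wild type library was analysed here. The tissue was whole trimmed cord and not sorted MNs, so fewer cells of a type and less RNA per cell cannot be told apart.

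Spinal MNs settle in columns according to their targets. The median motor column (MMC) innervates axial muscle, the lateral motor column (LMC) limb muscle, and the preganglionic column (PGC) autonomic ganglia, and LMC neurons are further grouped into pools that each serve a single muscle. *Foxp1* encodes the forkhead cofactor through which Hox proteins set up the LMC and PGC, and *Pou3f1*, *Runx1*, *Mecom* and *Barx2* label subsets of MNs within columns or pools. The Onecut proteins act in newborn MNs, where they maintain *Isl1*, and they also mark Renshaw cells and other ventral interneurons.

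Sequences are shown for the genes on which the differences below turn. *Runx1* and *Mecom* each have a distal and a proximal promoter, 128.7 kb and 496.6 kb apart, and both genes were lower at the lumbar level. The RefSeq promoter windows (GRCm38.p6, minus strand, 250 bases before to 50 bases after the start) are given 5′ to 3′ with capitals on matches to TAAT, the core of most homeodomain sites, and to TGATNNAT, a Hox and Pbx type site, on either strand. These motifs occurred in 58.0% and 8.85% of 32851 promoter windows, and a match here is a description of letters only. The *Runx1* windows are chr16:92826025-92826324 (distal) and chr16:92697280-92697579 (proximal), and the *Mecom* windows are chr3:30509710-30510009 (distal) and chr3:30013155-30013454 (proximal).
Runx1 distal promoter: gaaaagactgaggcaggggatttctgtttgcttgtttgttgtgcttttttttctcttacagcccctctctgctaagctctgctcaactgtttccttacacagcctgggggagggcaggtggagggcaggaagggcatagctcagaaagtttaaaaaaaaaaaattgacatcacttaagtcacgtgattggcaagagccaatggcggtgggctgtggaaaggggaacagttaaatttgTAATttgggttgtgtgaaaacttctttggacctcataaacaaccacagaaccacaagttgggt
Runx1 proximal promoter: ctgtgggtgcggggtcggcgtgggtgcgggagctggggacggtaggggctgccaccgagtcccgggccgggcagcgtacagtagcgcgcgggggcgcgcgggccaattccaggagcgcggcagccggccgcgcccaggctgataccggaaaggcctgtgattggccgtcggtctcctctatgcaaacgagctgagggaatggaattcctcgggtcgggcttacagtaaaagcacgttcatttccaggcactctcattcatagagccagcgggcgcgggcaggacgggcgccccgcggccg
Mecom distal promoter: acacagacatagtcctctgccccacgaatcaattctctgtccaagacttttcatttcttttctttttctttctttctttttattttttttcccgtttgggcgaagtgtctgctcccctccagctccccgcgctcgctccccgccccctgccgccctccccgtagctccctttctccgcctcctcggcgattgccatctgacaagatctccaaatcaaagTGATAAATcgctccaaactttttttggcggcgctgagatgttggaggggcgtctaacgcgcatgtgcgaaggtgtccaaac
Mecom proximal promoter: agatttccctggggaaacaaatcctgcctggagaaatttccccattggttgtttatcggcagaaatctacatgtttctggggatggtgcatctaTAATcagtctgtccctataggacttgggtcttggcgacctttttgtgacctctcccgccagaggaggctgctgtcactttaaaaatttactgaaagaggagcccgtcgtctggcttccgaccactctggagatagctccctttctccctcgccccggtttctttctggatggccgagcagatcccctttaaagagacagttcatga
The distal *Runx1* window held TAAT at bases 238 to 241, the distal *Mecom* window held TGATAAAT at bases 220 to 227, and the proximal *Mecom* window held TAAT at bases 95 to 98. The proximal *Runx1* window held neither motif.

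*Barx2* was the member with the clearest genotype difference, and the coding stretch that makes it a homeobox gene is shown from the GENCODE transcript Barx2-201 (GRCm38, chromosome 9, minus strand). It spans exons 2, 3 and 4 of 4, at chr9:31858731-31858822, chr9:31854113-31854197 and chr9:31847053-31847055. Capitals mark the codons from the conserved tryptophan to the arginine pair, a stretch within the third helix, the helix that reads DNA.
Barx2 homeobox: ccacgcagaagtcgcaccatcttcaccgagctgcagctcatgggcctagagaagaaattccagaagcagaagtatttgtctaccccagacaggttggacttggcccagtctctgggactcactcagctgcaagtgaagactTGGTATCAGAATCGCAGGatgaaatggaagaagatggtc
The homeoboxes of *Onecut1* (exon 2 of 2, chr9:74889353-74889532, plus strand) and *Onecut3* (exon 2 of 2, chr10:80513904-80514083, plus strand) are shown because reads of such close paralogs could be shared. Capitals mark the 47 of 180 bases at which they differ.
Onecut1 homeobox: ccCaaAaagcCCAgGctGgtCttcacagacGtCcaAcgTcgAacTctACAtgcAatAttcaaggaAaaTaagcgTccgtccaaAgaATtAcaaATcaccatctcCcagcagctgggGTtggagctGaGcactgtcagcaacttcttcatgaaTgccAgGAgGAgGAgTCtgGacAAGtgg
Onecut3 homeobox: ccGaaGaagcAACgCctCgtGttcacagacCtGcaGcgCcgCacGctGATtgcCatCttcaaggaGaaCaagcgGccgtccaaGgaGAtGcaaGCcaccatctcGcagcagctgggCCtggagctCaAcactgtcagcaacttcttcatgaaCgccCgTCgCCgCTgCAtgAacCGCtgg
They were 73.9% identical, and the longest identical run between the longest transcripts of both genes was 50 bases. The longest identical run was 26 bases for *Onecut1* with *Onecut2*, 38 for *Onecut2* with *Onecut3*, and between 20 and 35 for the pairs of Foxp genes. Reads falling within such runs could be assigned to either paralog.

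Expression is given as TPM, a unit scaled to transcript length and library size, rescaled between libraries on the median gene. Aligned bases ranged from 4.48 to 6.64 Gb per library, the lowest being Brachial KO replicate 3. That library stood farthest from the others of its level, with 897 genes more than 1 log2 unit from the median of the other 5 brachial libraries against 362 to 506 for each of those, and the lumbar libraries gave 382 to 571. Its long transcripts were high and its short ones low, with median log2 differences from the other 5 brachial libraries of 0.42 over 841 protein-coding genes above 8 kb and -0.21 over 2557 of up to 2 kb. Relative to the mean of all 12 libraries, genes above 8 kb had a median of 0.38 in that library, 0.20 in Brachial KO replicate 2 and -0.20 in Brachial Het replicate 3, so a length skew ran partly with genotype at the brachial level and leaving out 1 library does not remove it. Many of the results resting on the brachial KO libraries are therefore given with and without it. *Isl2* itself fell between 8.29 and 10.3 TPM in the 6 Het libraries and between 4.46 and 8.21 in the 6 KO libraries, with no overlap at either level, so transcripts of the gene were still detected in the KO. The 10 MN markers were all detected, among them *Mnx1* (37.4 to 66.9 TPM) and *Isl1* (45.1 to 69.6), and *Myod1* of skeletal muscle was at 0 in all 12 libraries.

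The members covered a wide range of levels. In the brachial Het libraries the order by mean TPM was *Foxp1*, *Foxp2*, *Mecom*, *Pou3f1*, *Onecut2*, *Barx2*, *Foxp4*, *Onecut1*, *Onecut3* and *Runx1*, from 27.0 ± 0.72 (SD, n = 3) for *Foxp1* to 0.739 ± 0.22 for *Runx1*. Within this order the ranges overlapped between the neighbours *Mecom* and *Pou3f1* and between *Onecut3* and *Runx1*, and not between the others. In the lumbar Het libraries *Pou3f1* stood above *Mecom* with overlapping ranges, *Foxp1* overlapped *Foxp2*, *Foxp4* overlapped *Onecut1*, and *Runx1* was last at 0.0896 ± 0.013. Levels of *Foxp1*, with 41 RefSeq transcripts, *Mecom* with 16, *Foxp4* with 8, *Foxp2* and *Runx1* with 4 each and *Onecut2* with 2 depend on how the reads were divided between transcripts, so their place in the order is less certain than that of genes with 1 transcript such as *Barx2* and *Pou3f1*.

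**Figure D1:**
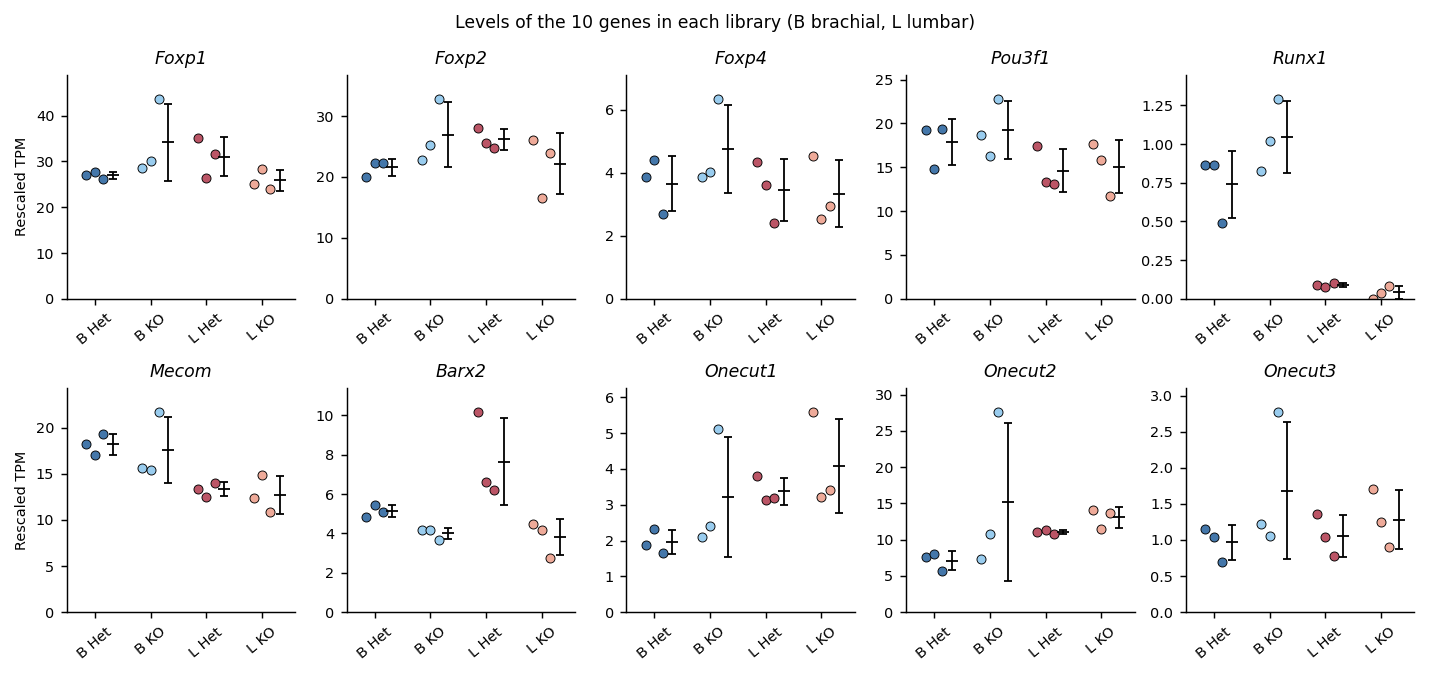
Rescaled TPM of the 10 genes in each of the 12 libraries, with 1 panel per gene, a linear axis from 0, points for libraries and a bar for the group mean and SD (n = 3). *Runx1* lay at 0.487 TPM or above in every brachial library and at 0.103 or below in every lumbar one, *Barx2* KO libraries lay below the Het libraries at both levels, and the highest brachial point of every gene but *Barx2* was Brachial KO replicate 3.

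*Barx2*, a Bar-class homeobox gene, was the only member past the threshold (absolute log2 fold change above 0.5 with unadjusted p under 0.05) in either genotype comparison, and it was lower in the KO. The threshold is that of the study for lower genes, applied here in both directions. In lumbar Het libraries it measured 10.2, 6.59 and 6.19 TPM, and in lumbar KO libraries 4.47, 4.17 and 2.76. All 3 KO libraries were below all 3 Het libraries, and the spread of the Het group came from replicate 1. The log2 difference was -0.98 (95% CI -1.55 to -0.42, unadjusted limma p = 0.00385, exact permutation p = 0.1), a KO mean of 49.7% of the Het mean. With adjustment over all 16511 genes tested it did not pass (limma, adjusted p = 0.986). At this threshold 1.77% of all genes were called at the lumbar level and 0.793% of all genes were called lower, against 1 of the 9 members tested.

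At the brachial level *Barx2* measured 4.84, 5.43 and 5.11 TPM in Het and 4.15, 4.18 and 3.68 in KO libraries. The groups again did not overlap, with the KO lower, as was so for 10.3% of all genes tested at the brachial level, 5.51% at the lumbar level and 1.32% at both. The log2 difference was -0.35 (95% CI -0.65 to -0.052, limma adjusted p = 0.359) and it was -0.29 without Brachial KO replicate 3 (95% CI -0.60 to 0.020) and -0.24 with each library corrected for transcript length (95% CI -0.52 to 0.043), both intervals then including 0. The two-sided exact permutation p of 3 against 3 libraries was 0.1 here as well, the smallest such a design allows.

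The lumbar and brachial *Barx2* differences differed from each other by -0.64 on the log2 scale (95% CI -1.27 to 0.0020, limma adjusted p = 0.812), and the exact permutation p of this difference was 0.29. It was -0.71 with the length correction (95% CI -1.32 to -0.098, limma adjusted p = 0.900) and -0.69 without Brachial KO replicate 3 (limma adjusted p = 0.941). In Het libraries every lumbar value of *Barx2* was above every brachial one (log2 difference 0.53, 95% CI 0.097 to 0.97, limma adjusted p = 0.173), and in KO libraries the levels overlapped (log2 difference -0.10, 95% CI -0.58 to 0.38). *Barx2* belongs to the genes the study listed as lower in the lumbar KO from these same libraries, so its direction is not independent evidence. It lies 23.6 Mb from *Isl2* on chromosome 9, and *Onecut1* lies 19.3 Mb from *Isl2* on the other side.

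Over the 12 libraries the protein-coding genes with the profile nearest to that of *Barx2* were *Vstm2l*, *Mst1r* and *Chat*, with root mean square differences of 0.25, 0.25 and 0.26 log2 units after centring, among 13284 genes compared. *Chat* encodes the acetylcholine-synthesising enzyme of MNs. Its means were 8.11 TPM in brachial Het, 7.02 in brachial KO, 9.73 in lumbar Het and 7.56 in lumbar KO libraries. The summed level of the 10 MN markers, *Isl2* among them, was 621 to 634 TPM in brachial Het and 553 to 577 in brachial KO libraries, without overlap. Much of this sum is *Prph*, with means of 309 and 259 TPM (log2 difference -0.26, 95% CI -0.50 to -0.019). *Isl1* (59.9 and 49.5 TPM, log2 difference -0.27, 95% CI -0.47 to -0.069), *Aldh1a2* (118 and 105), *Chat* and *Isl2* also had lower KO means. In contrast *Mnx1* (42.3 and 44.6), *Slc18a3*, *Slc5a7*, *Lhx3* and *Lhx4* had KO means above their Het means, and the median log2 difference over the list was -0.051. At the lumbar level it was 327 to 428 in Het and 249 to 359 in KO libraries, with overlap, and the median over the list was -0.33. There *Prph* was past the threshold with *Barx2* (-0.78, limma adjusted p = 0.986). *Slc5a7* (-0.35, 95% CI -0.63 to -0.064), *Isl1* (-0.31, 95% CI -0.58 to -0.049) and *Isl2* (-0.35, 95% CI -0.65 to -0.047) also had intervals below 0. The remaining MN markers had intervals that included 0, from *Chat* at -0.40 to *Lhx4* at 0.23, with *Mnx1* at -0.016 and *Lhx3* at -0.026. The part of these markers in the *Barx2* difference was not tested.

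For *Foxp1*, the LMC and PGC determinant, the KO minus Het estimates had opposite signs at the 2 levels. Brachial Het libraries measured 27.1, 27.6 and 26.2 TPM and brachial KO libraries 28.5, 30.2 and 43.7, with the KO wholly above the Het. Lumbar Het libraries measured 35.0, 26.5 and 31.6 TPM and lumbar KO libraries 25.1, 28.4 and 24.0, with overlap. The log2 differences were 0.31 (95% CI -0.046 to 0.67, limma adjusted p = 0.374) and -0.26 (95% CI -0.53 to 0.016, limma adjusted p = 0.999), neither past the threshold.

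*Foxp2*, which marks a large clade of V1 interneurons and some MNs, showed the same arrangement. Brachial Het libraries measured 20.0, 22.4 and 22.3 TPM and brachial KO libraries 22.8, 25.3 and 32.9, again without overlap. Lumbar Het libraries measured 28.1, 25.6 and 24.8 TPM and lumbar KO libraries 26.0, 16.6 and 23.9. The log2 differences were 0.31 (95% CI -0.014 to 0.62) and -0.26 (95% CI -0.64 to 0.11). The lumbar value rested on Lumbar KO replicate 2 (16.6 TPM), without which it was -0.066 (95% CI -0.29 to 0.16). KO libraries lay wholly above Het libraries for 9.67% of all genes at the brachial level, against these 2 of 10 members.

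For both genes the lumbar difference was lower than the brachial one by 0.57 log2 units. The exact permutation p was 0.02 for *Foxp1* and 0.025 for *Foxp2*, and the unadjusted limma p was 0.0194 and 0.0313. Both limma adjusted p-values were 0.812 over 16736 genes, of which 4.42% had an unadjusted p under 0.05, as did these 2 of the 10 members. No gene had a limma adjusted p under 0.05 for this difference. An estimate below 0 was not particular to these 2 genes. Of the 10 members 0 were positive, with a median of -0.49 against -0.0034 over all genes. Larger estimates were those of *Barx2* (-0.64), *Onecut2* (-0.64, 95% CI -1.74 to 0.46) and *Runx1* (-0.93, 95% CI -2.09 to 0.22, exact permutation p = 0.04). The filter kept *Runx1* only through its brachial libraries. Leaving out Brachial KO replicate 3 gave -0.098 for *Onecut2* and 0.017 for *Onecut1*. Without Brachial KO replicate 3 the brachial differences were 0.12 for *Foxp1* and 0.15 for *Foxp2*, and the differences between levels were -0.38 (95% CI -0.71 to -0.043) and -0.42 (95% CI -0.89 to 0.060), with a limma adjusted p of 0.941 for each. The interval of *Foxp2* then included 0, so that its unadjusted p was no longer under 0.05. With each library corrected for transcript length the brachial differences were 0.12 and 0.13, and the differences between levels were -0.40 (95% CI -0.80 to -0.012) and -0.42 (95% CI -0.80 to -0.033), with a limma adjusted p of 0.900 for each. *Foxp4*, the third neural member of the family, ranged from 2.41 to 6.36 TPM over the 12 libraries, its groups overlapped at both levels, and its highest value was again Brachial KO replicate 3, without which its brachial difference was 0.14 in place of 0.36. Its lumbar difference was -0.053, so its estimates had opposite signs as well.

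**Figure D2:**
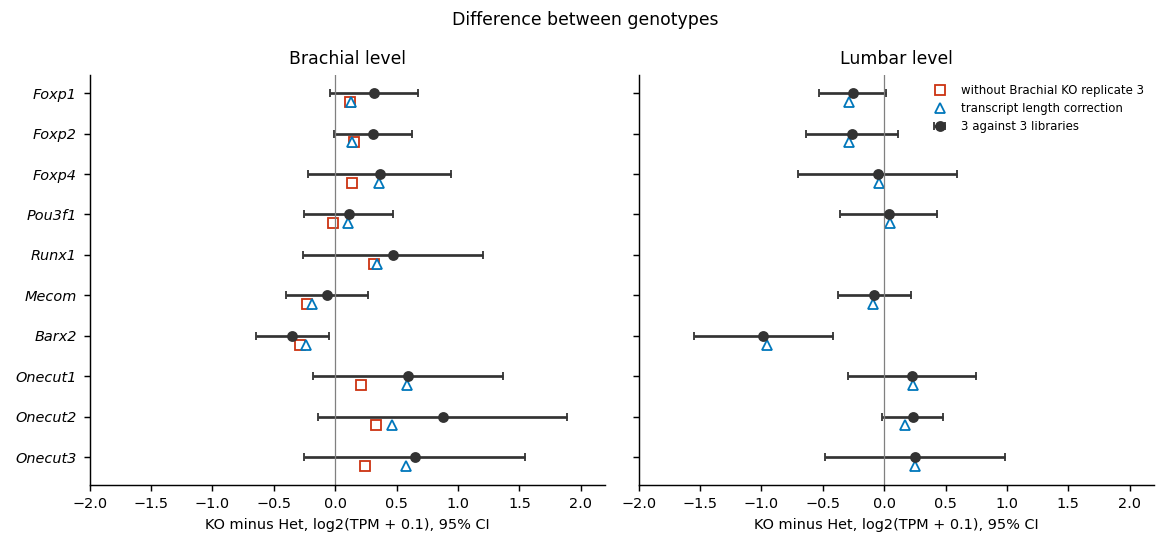
Difference between *Isl2* KO and Het at the brachial (left) and lumbar (right) level on the log2(TPM + 0.1) scale, with filled points and 95% CI from 3 against 3 libraries, open squares without Brachial KO replicate 3 and open triangles after transcript length correction. With all libraries only the interval of *Barx2* lies below 0 at both levels, its brachial interval including 0 without that library and after the correction, and the brachial squares of *Onecut1*, *Onecut2* and *Onecut3* (0.21, 0.33 and 0.24) lie well below their filled points (0.59, 0.87 and 0.65), whereas their triangles lie at 0.59, 0.46 and 0.58. *Runx1* was not tested in the lumbar comparison.

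At the brachial level the Onecut genes, which encode cut homeodomain proteins, were each highest in the same library. *Onecut2* measured 7.64, 8.05 and 5.61 TPM in brachial Het and 7.27, 10.8 and 27.6 in brachial KO libraries, the last being replicate 3. *Onecut1* measured 1.88, 2.31 and 1.66 in brachial Het and 2.11, 2.41 and 5.13 in brachial KO libraries. *Onecut3* measured 1.15, 1.04 and 0.699 against 1.22, 1.05 and 2.77. Het and KO overlapped for all 3 genes, and no brachial difference passed the threshold (limma adjusted p = 0.377 for *Onecut2*, 0.406 for *Onecut1* and 0.429 for *Onecut3*). With the length correction the differences were 0.59 for *Onecut1*, 0.46 for *Onecut2* and 0.58 for *Onecut3*. At this level 3.10% of all genes were past it and 0 of the 10 members.

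In Brachial KO replicate 3, 9 of the 10 members had their highest value of the 6 brachial libraries, as did 27.0% of all genes tested. *Barx2*, which has the shortest transcript of the members (1.97 kb), had its lowest brachial value there. *Onecut2*, with the longest (16.2 kb), stood 1.84 log2 units above the median of the other 5 libraries, *Onecut3* 1.32, *Onecut1* 1.24, *Foxp4* 0.70 and *Foxp1* 0.66. The summed level of 7 V1 interneuron markers was 63.3 TPM in this library against 43.1 to 47.8 in the other 5, and that of 7 V0 and V2 interneuron markers was 47.2 against 31.6 to 38.1. *Calb1*, a V1 marker found in Renshaw cells, went the other way between genotypes, at 12.4 to 13.4 TPM in brachial Het and 7.84 to 8.96 in brachial KO libraries (log2 difference -0.59, limma adjusted p = 0.359), and was the 1 of 6 V1 markers tested that passed the study's threshold. The part of these markers in the Onecut and Foxp values was not tested.

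**Figure D3:**
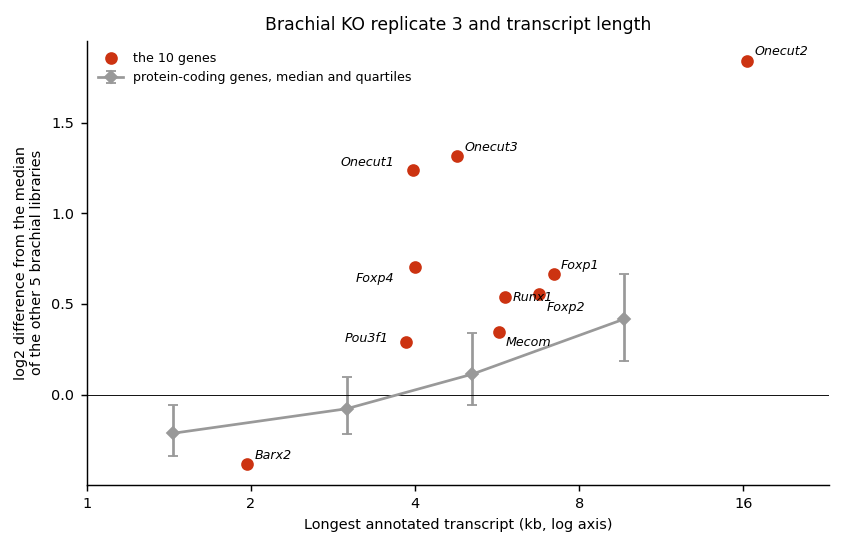
Log2 difference of Brachial KO replicate 3 from the median of the other 5 brachial libraries (vertical axis) against the longest annotated transcript in kb (horizontal log axis), with red points for the 10 genes and grey diamonds with bars for the median and quartiles of all protein-coding genes in 4 length classes. The class medians run from -0.21 to 0.42, every gene of the 10 but *Barx2* lies above the upper quartile of its class, from *Pou3f1* at 0.29 to *Onecut2* at 1.84, and *Barx2* at -0.39 lies below the lower quartile of its class.

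At the lumbar level *Onecut2* measured 11.1, 11.3 and 10.8 TPM in Het and 14.1, 11.5 and 13.6 in KO libraries. The KO was wholly above the Het, as for 4.43% of all genes, by 0.23 log2 units (95% CI -0.014 to 0.48, limma adjusted p = 0.999). *Onecut1* measured 3.79, 3.13 and 3.19 against 5.60, 3.22 and 3.42, and *Onecut3* 1.35, 1.04 and 0.771 against 1.70, 1.25 and 0.896. Both overlapped between genotypes.

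*Pou3f1*, also called Oct6 or SCIP, is a POU factor that the study used to mark MMC and hypaxial motor column neurons and some motor pools. It did not differ detectably between genotypes. The KO minus Het log2 difference was 0.11 (95% CI -0.25 to 0.47) at the brachial and 0.035 (95% CI -0.36 to 0.43) at the lumbar level. *Mecom*, which encodes the zinc finger protein Evi1 (Prdm3) of MNs and blood stem cells, differed by -0.068 (95% CI -0.40 to 0.26) and -0.081 (95% CI -0.38 to 0.22). Without Brachial KO replicate 3 the brachial differences were -0.021 (95% CI -0.36 to 0.32) for *Pou3f1*, with the sign turned, and -0.23 (95% CI -0.45 to -0.013, limma adjusted p = 0.675) for *Mecom*. For *Runx1* the brachial difference was 0.47 (95% CI -0.27 to 1.20), and with single libraries left out it ranged from 0.23, without Brachial Het replicate 3, to 0.61. It was 0.32 without Brachial KO replicate 3. Intervals of this width do not show that either gene was unaffected.

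The methods of the study give 3 animals per genotype, so brachial and lumbar libraries may share embryos, whereas the comparisons between levels and their permutations took all 12 libraries as independent. Between levels, *Mecom* had a limma adjusted p under 0.05 in the fit of all 12 libraries with genotype as a covariate, and was lower at the lumbar level. So was *Runx1*, which entered that fit only through its brachial libraries. In either direction 18.5% of all genes tested passed. *Runx1*, a Runt factor of cervical MNs and of blood progenitors, showed the larger difference. Brachial libraries measured 0.868, 0.862 and 0.487 TPM in Het and 0.829, 1.02 and 1.29 in KO, and lumbar libraries 0.0893, 0.0764 and 0.103 in Het and 0, 0.0404 and 0.0839 in KO. The brachial mean was 13.6 times the lumbar mean, and no library of one level reached the other. The log2 difference, understated at such low values by the added 0.1, was -2.58. *Runx1* passed the filter on mean TPM only through the brachial libraries, where it is high, so its test is given without a filter, over 30567 genes (95% CI -3.12 to -2.03, limma adjusted p = 0.000196). Without a filter 1491 genes were called lower at the lumbar level and 1201 higher. The exact permutation p within genotype was 0.005, the smallest that 400 arrangements allow.

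The coverage behind *Runx1* was thin, 1.34 to 2.93 reads per base in brachial and 0 to 0.299 in lumbar libraries, so the lumbar values are close to nothing detected. For the same reason *Runx1* was left out of the lumbar genotype test by the filter on mean TPM, and its mean over all libraries was just at that filter. Without the filter the lumbar KO minus Het difference was -0.46 (95% CI -1.08 to 0.15). Of the 8 microglia and macrophage markers, cells that also use *Runx1*, 4 were lower at the lumbar level (limma, adjusted p under 0.05), *Csf1r* among them with 2.48 to 4.79 TPM in brachial and 1.26 to 2.07 in lumbar libraries. The summed level of all 8, each of them detected, was 22.1 to 35.1 TPM in brachial and 10.8 to 22.2 in lumbar libraries, and its part in the *Runx1* difference was not tested. The genes with the nearest profile were *Agtr2*, *Prph* and *Strip2*, at root mean square differences of 0.42, 0.48 and 0.49 log2 units, and *Prph*, the peripherin of MN axons, averaged 309 TPM in brachial Het and 61.7 in lumbar Het libraries. Over the 10 MN markers the median lumbar minus brachial difference was 0.12. *Prph*, *Aldh1a2* and *Slc5a7* were called lower (limma, adjusted p under 0.05) and 0 higher. Estimates were above 0 for *Lhx3* (0.45), *Mnx1* (0.25), *Isl2*, *Chat*, *Lhx4* and *Isl1*, and slightly below 0 for *Slc18a3* (-0.094).

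*Mecom* was lower at the lumbar level by a smaller and more even amount. Brachial libraries measured 18.2, 17.1 and 19.3 TPM in Het and 15.6, 15.4 and 21.7 in KO, and lumbar libraries 13.4, 12.53 and 14.0 in Het and 12.4, 14.9 and 10.8 in KO. The lowest brachial library was above the highest lumbar one, as for 4.68% of all genes. The log2 difference was -0.45 (95% CI -0.66 to -0.24, limma adjusted p = 0.00693), and it was -0.45 in Het and -0.46 in KO libraries taken alone (limma adjusted p = 0.0353 and 0.163). Of 7 endothelial markers, 4 were lower at the lumbar level, with *Cldn5* at 26.6 to 44.7 TPM in brachial and 20.1 to 30.5 in lumbar libraries. The summed level of all 7, each of them detected, was 75.7 to 107 TPM in brachial and 68.4 to 83.4 in lumbar libraries, and its part in the *Mecom* difference was not tested. Without Brachial KO replicate 3 the *Mecom* difference was -0.38 (limma adjusted p = 0.00797), and *Runx1* did not pass the filter. The nearest profiles were those of *Dgka*, *Comtd1* and *Gimap8*, at 0.12, 0.13 and 0.13 log2 units.

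**Figure D4:**
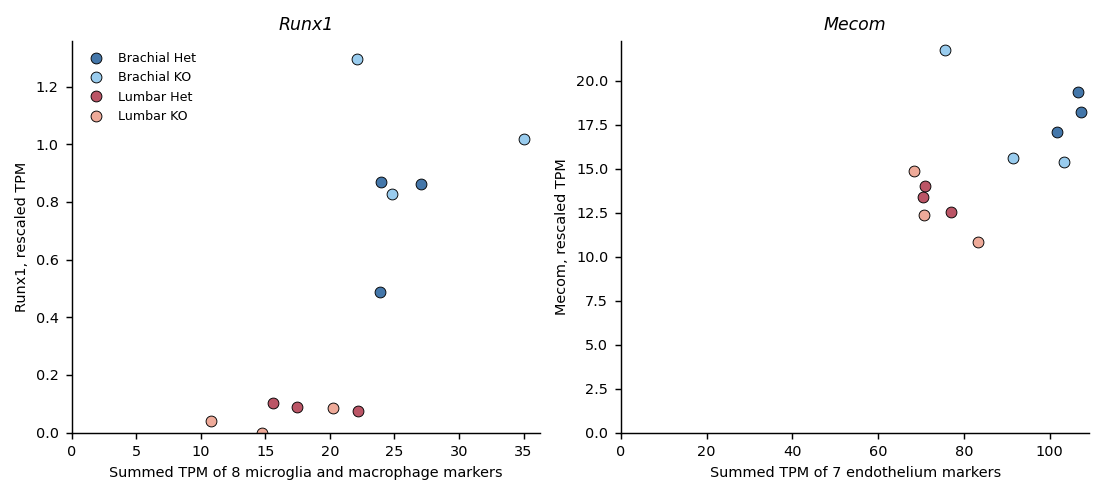
Rescaled TPM of *Runx1* against the summed TPM of 8 microglia and macrophage markers (left), and of *Mecom* against that of 7 endothelial markers (right), with 1 point per library coloured by group and linear axes from 0. The marker sums run from 22.1 to 35.1 in brachial and 10.8 to 22.2 in lumbar libraries on the left, and from 75.7 to 107 and 68.4 to 83.4 on the right, and their part in the differences was not tested.

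The other members overlapped between levels. The lumbar minus brachial difference of *Onecut1* was 0.58 log2 units (95% CI 0.12 to 1.05, limma adjusted p = 0.0775) and that of *Pou3f1* was -0.32 (95% CI -0.59 to -0.058, limma adjusted p = 0.0861), neither past the threshold, although *Onecut1* passed with the length correction (0.59, limma adjusted p = 0.0468) and with quantile normalization (0.64, 0.0430), and *Pou3f1* with TPM as deposited (-0.46, 0.0387) and with embryo sex as a term. With TPM as deposited the median difference of all genes was -0.13, against 0.012 in the reported fit. The lumbar minus brachial difference of *Onecut2* was 0.33 (95% CI -0.23 to 0.89). Without Brachial KO replicate 3 both Onecut genes passed, with *Onecut1* at 0.77 (limma adjusted p = 0.00564) and *Onecut2* at 0.61 (limma adjusted p = 0.00544), when 19.0% of all genes did. The *Pou3f1* difference was smaller without that library, at -0.26, and did not pass. In Het libraries alone the lumbar libraries were wholly above the brachial ones for *Onecut1*, *Onecut2*, *Foxp2* and *Barx2* and wholly below for *Mecom*. Levels did not overlap for 25.9% of all genes tested there. *Runx1* was also wholly below in Het libraries but was not among the genes tested there. In KO libraries alone *Foxp1*, *Runx1* and *Mecom* were wholly below, 3 of 10 against 29.1%, *Runx1* being kept by the filter only through its brachial libraries. *Onecut2* in Het libraries differed by 0.65 log2 units (95% CI 0.32 to 0.98, limma adjusted p = 0.0557).

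**Figure D5:**
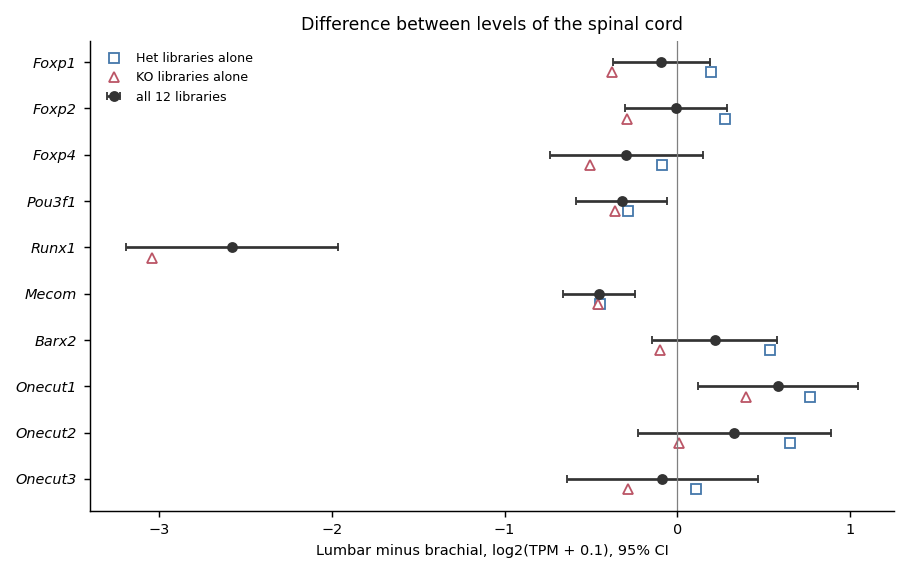
Lumbar minus brachial difference of the 10 genes on the log2(TPM + 0.1) scale, with filled points and 95% CI from all 12 libraries, open squares from Het and open triangles from KO libraries alone. *Runx1* (-2.58), *Mecom* (-0.45) and *Pou3f1* (-0.32) have intervals below 0 and *Onecut1* (0.58) above, and *Foxp1*, *Foxp2*, *Barx2* and *Onecut3* have squares to the right of 0 and triangles to the left. *Runx1* was not tested in the Het libraries alone.

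The paralogs and partners of the members gave a separate view of the same families. Of 10 such genes, 4 had a mean under 0.5 TPM, namely *Foxp3*, *Runx2*, *Runx3* and *Barx1*, so that the Foxp and Barx families were each represented by the members alone. *Cbfb*, the subunit that Runx proteins need to bind DNA, was even across the libraries at 40.7 to 51.1 TPM. None of the 6 tested passed the threshold between genotypes at either level. Between levels *Runx1t1*, a corepressor that Runx1 is fused to in leukaemia, was lower at the lumbar level by -0.58 log2 units (limma adjusted p = 0.0247), and the POU genes *Pou3f2* and *Pou3f4* were higher by 0.39 and 0.27 (limma adjusted p = 0.00307 and 0.0325), while *Pou3f3* differed by 0.058 (95% CI -0.071 to 0.19). The median lumbar minus brachial difference was -0.090 over the 10 members, 0.022 over these 6 and 0.012 over all genes.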

How the data were processed

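Bulk RNA-seq of 12 ventral spinal cord libraries at E12.5 was analysed, 3 for each of 4 groups of level and *Isl2* genotype taken from the labels. The authors made stranded total RNA libraries, used Trimmomatic 0.38 for trimming, HISAT2 2.1.0 and Bowtie2 2.3.4.1 for alignment to mm10, and StringTie 2.1.3b for quantification, as the paper and the processing notes state. The deposited TPM values are StringTie estimates of the authors per gene, scaled to a fixed total per library. The deposited FPKM values are of the same run and served only, with the deposited coverage signal (mean reads per base), to read depth. No counts were analysed here, so counting error is not known and no interval is given for a single library. Whether the counting used strand is not given in the sources used here, and of genes overlapping a member only *Gm38678*, on the strand of *Onecut1*, reached 0.5 TPM.

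TPM was rescaled by median ratios over 19305 genes. Genes with a mean deposited TPM of at least 0.5 were tested on log2(TPM + 0.1) with limma 3.58.1 (trended variance, R 4.3.3), KO against Het within a level (16935 genes brachial, 16511 lumbar), and level with genotype as covariate and their interaction in all 12 libraries (16736 genes). P-values were adjusted by Benjamini-Hochberg over all genes. The threshold was an absolute log2 fold change above 0.5 with unadjusted p under 0.05, which the study gave for lower genes and which was applied here in both directions, and adjusted p under 0.05 was used between levels. The code was tested on simulated data. The comparisons share libraries, so the level comparison and the interaction are not independent of the genotype comparisons. P-values measure the spread between 3 libraries per group.

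The members and lists were chosen with earlier results of these data known. Named genes were the 10 members, 10 paralogs and partners, *Isl2*, and for each member called the 3 protein-coding genes of nearest centred log2 profile. Marker lists covered MNs, V1, V0 and V2 and dorsal interneurons, sensory ganglia, blood, microglia and macrophages, endothelium, skeletal muscle and mesenchyme. Promoter sequences were from the RefSeq table of GRCm38.p6, which held 5 of the 10 members. Same-numbered replicates were not treated as pairs, and correlations of their deviations ranged from -0.216 to 0.340. Brachial Het with lumbar Het gave 0.20 and 0.34 for replicates 2 and 3, whose sexes matched. Brachial Het with brachial KO replicate 2, of different genotypes, gave 0.23. Whether any of these libraries share an embryo was not tested. Alternatives were another pseudocount, filter, scaling, variance model, unit or gene set, a replicate block, leaving out each library, and, chosen after seeing the data, a transcript length correction (lengths for 98.8% of 13267 protein-coding genes) and embryo sex as a term.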

Additional observations from a re-analysis of the deposited data

Results flagged for a closer look

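The genotype difference of 2 members differed between levels at an unadjusted p under 0.05, as did 4.42% of all genes. Of the 10 members 0 had a positive estimate, with a median of -0.49 against -0.0034 over all genes. For *Foxp1* the lumbar minus brachial genotype difference was -0.57 on the log2 scale (exact permutation p = 0.02, limma adjusted p = 0.812), and with single libraries left out it ranged from -0.69 to -0.38. For *Foxp2* it was -0.57 (exact permutation p = 0.025, limma adjusted p = 0.812), with a range of -0.70 to -0.37. Without Brachial KO replicate 3 the *Foxp1* difference was -0.38 (95% CI -0.71 to -0.043) and that of *Foxp2* -0.42 (95% CI -0.89 to 0.060), the latter no longer at an unadjusted p under 0.05.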

How the results depend on the processing

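No member passed the study's threshold between genotypes at the brachial level, and 1 did (*Onecut2*) with TPM as deposited or with all 12 libraries in one fit. Over all genes 47 were then lower and 1211 higher of 16935, and 178 and 406 of 16736, respectively. Leaving out each library in turn gave 0 to 2 members, the 2 being *Onecut1* and *Onecut2* without Brachial KO replicate 1. Over all genes 338 were lower and 1058 higher of 16963 without that library, against 148 and 377 of 16935 in the reported fit. At the lumbar level every alternative called *Barx2* alone, with leave-one-out counts of 1 to 1 and log2 differences of -1.12 to -0.76. By limma the interaction called 0 members at an adjusted p under 0.05 under every alternative run, against 2 at an unadjusted p under 0.05 in the reported fit. Between levels 2 members were called, *Mecom* and also *Runx1*, which the filter kept only through its brachial libraries. There was 1 with a mean TPM of at least 1 (*Mecom*), 1 in Het libraries alone (*Mecom*), 1 in KO libraries alone (*Runx1*, again kept only through its brachial libraries) and 1 to 3 when each library was left out. There were 3 with the length correction or quantile normalization (*Onecut1* added) and with TPM as deposited or sex as a term (*Pou3f1* added). *Runx1* is missing from several of these because fewer genes passed the filter on mean TPM. Over all genes 1615 were called lower and 1486 higher of 16736 in the reported fit. With the length correction they were 1914 and 1809 of 13130, with quantile normalization 1757 and 1485, with TPM as deposited 2214 and 646, and with sex as a term 1494 and 1291. They were 1547 and 1483 of 14972 with a mean TPM of at least 1, 336 and 166 of 16551 in Het libraries alone, and 158 and 135 of 16918 in KO libraries alone. Signs turned for differences near 0. *Mecom* at the brachial level was 0.11 with TPM as deposited, and at the lumbar level 0.00081 with sex as a term. Between levels, Het libraries alone gave 0.19 for *Foxp1*, 0.28 for *Foxp2* and 0.11 for *Onecut3*, KO libraries alone gave -0.10 for *Barx2*, and the length correction gave 0.038 for *Foxp2*. The cause of these was not tested. Leave-one-out ranges that crossed 0 were, brachial, -0.021 to 0.22 for *Pou3f1* and -0.23 to 0.017 for *Mecom*; lumbar, -0.29 to 0.13 for *Foxp4*, -0.088 to 0.20 for *Pou3f1*, -0.20 to 0.027 for *Mecom* and -0.018 to 0.37 for *Onecut1*; and between levels, -0.16 to 0.024 for *Foxp1*, -0.062 to 0.11 for *Foxp2* and -0.20 to 0.12 for *Onecut3*. With the replicate block 0 members were called at the brachial level, 1 at the lumbar level (*Barx2*, -0.98) and 2 between levels, so it changed no call. With TPM as deposited the median of all genes moved to 0.16 at the brachial level, -0.17 in the interaction and -0.13 between levels. Counts over all genes at the brachial level ranged from 34 to 338 lower and from 144 to 1211 higher, against 148 and 377. Depth limits *Runx1* most, whose lumbar coverage was at most 0.299 reads per base.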

Other observations

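Embryo sex, read from Y-linked genes and *Xist*, was male, male and female in brachial Het replicates 1 to 3, male, male and female in brachial KO, female, male and female in lumbar Het and male, female and male in lumbar KO. The methods of the study give 3 animals per genotype. The Het sexes do not allow the same 3 embryos at both levels, although up to 2 could be shared, and the KO sexes allow all 3 to be shared. With sex as a term *Barx2* at the lumbar level differed between genotypes by -0.90 log2 units (limma adjusted p = 0.889), *Mecom* still passed between levels, and *Pou3f1* passed as well (-0.36, limma adjusted p = 0.0476).

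Among the marker lists, blood genes such as *Hba-x* were detected in every library, with a summed level of 1935 to 5904 TPM and its maximum in Brachial KO replicate 3. Dorsal interneuron markers summed to 21.2 to 49.3 TPM, sensory ganglion markers to 14.4 to 26.5, mesenchyme markers to 59.4 to 95.4 and skeletal muscle markers to 0.860 to 2.19.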
